A study of Mus musculus with 3 samples.

Results

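Axon guidance ligands and their receptors were described across the cell classes of mouse lumbar dorsal root ganglia (DRG), where the cell bodies of sensory neurons lie. The members were every gene whose symbol belongs to the semaphorins of classes 3 to 7, the plexins, the neuropilins, the Eph receptors, the ephrins, the Slits, the Robos, the netrins, the Unc5 receptors or Dcc, which gave 69 of 32227 genes. The study asked how the ganglion changes with age, and single nuclei were sequenced from 1 library of adult C57BL/6 mice (3 months) and 2 libraries of aged C57BL/6 mice (21 months). The labels name no transgene and no treatment. The libraries were described as biological replicates, and the number of mice behind each is not stated in the sources used here. The ages are those of the sample labels; the series text names a younger age for the old group.

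Guidance proteins steer growing axons by attraction or repulsion, and many persist in the adult ganglion and nerve. Class 3 semaphorins are secreted and act on neuropilins joined to plexins, whereas most other semaphorins are anchored in the membrane and bind plexins directly. Ephrins are membrane-bound ligands of the Eph receptor kinases, Slits are secreted ligands of Robo receptors, and netrins are laminin-like ligands of Dcc and the Unc5 receptors. The same families also pattern blood vessels, connective tissue and the contacts between Schwann cells and axons.

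Each library held 167664164, 95647106 and 69045987 unique molecular identifiers (UMIs) in the order adult, aged replicate 1 and aged replicate 2, and 11518, 5130 and 2611 barcodes with over 1000 genes were kept as nuclei. At most 1 kept barcode was shared by a pair of libraries. The labels call all 3 libraries male, but Xist, the RNA that silences the second X chromosome of females, stood at 1414, 844 and 929 CPM (the UMIs of a gene out of 1000000 UMIs) in the kept nuclei, against 2.73, 1.00 and 0.718 for the Y-linked gene Uty. Other Y-linked genes also stood far below Xist: Ddx3y (20.6, 13.2 and 7.87 CPM), Kdm5d (1.01, 0.591 and 0.611) and Eif2s3y (0.0997, 0.0537 and 0.0266). All 3 libraries went against their labels in this way, so that no value could be given without them, and sex is not used here. Nuclei were clustered with the members left out, and clusters were called neuron-like, satellite glial cell (SGC)-like, non-myelinating Schwann cell (NMSC)-like, myelinating Schwann cell (MSC)-like, endothelial-like, fibroblast-like, myeloid-like, mural-like and lymphocyte-like from marker lists. The named classes held 10774, 4698 and 2391 nuclei, and clusters with markers of several lineages (6.33%, 7.93% and 6.78% of nuclei) and a cycling or erythroid cluster (15, 25 and 43 nuclei) were left out. The myeloid-like cluster also passed several T lymphocyte markers, and the lymphocyte-like cluster several myelin markers. The NMSC-like cluster also passed 4 of 8 SGC markers and 3 of 11 fibroblast markers, and the SGC-like cluster 4 of 8 NMSC markers. An alternative clustering with scanpy named 671, 109 and 53 of the NMSC-like nuclei SGC-like, so these 2 classes are not cleanly separated. Mural-like nuclei (57, 18 and 3) were too few to test.

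Levels are in CPM of a class, and 3 levels in a row are those of adult, aged replicate 1 and aged replicate 2. They are comparable for 1 gene across classes, not between genes, since long genes give more nuclear UMIs. A member was called higher in a class when edgeR's quasi-likelihood test, adjusted by the Benjamini-Hochberg method over all genes, gave an adjusted p under 0.05 and a log2 fold change above 1 against the mean of the other classes. Fold changes are on the log2 scale and carry an approximate standard error (SE). This SE was derived from the test, as the absolute log2 fold change over the square root of its F statistic. Of the 69 members, 61 passed the filter on low counts and 8 did not: Efna2, Efna3, Efna4, Epha1, Epha8, Ntn3, Robo3 and Unc5a. Epha1 with 26 UMIs and Robo3 with 89 UMIs were the least detected, and Robo2 with 133841 UMIs the most. In GENCODE M21 (GRCm38, the mm10 build of the labels), 24 of the 69 shared their place with another gene of the files, 5 of them on the same strand (Ephb1, Ntn1, Ntn3, Slit2 and Slit3), and the sources used here do not say whether strand was counted, so reads of such pairs may not be separable.

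Neurons, glia, fibroblasts and vessels each had different leading guidance genes. Endothelial-like and MSC-like nuclei each had 21 of 61 members called higher, fibroblast-like 20, neuron-like 19, SGC-like 16, NMSC-like 15, myeloid-like 7 and lymphocyte-like 1. Of all 14779 genes tested, 8.99% were called higher in endothelial-like, 9.20% in MSC-like, 11.9% in fibroblast-like, 18.1% in neuron-like, 11.4% in SGC-like, 8.44% in NMSC-like, 14.5% in myeloid-like and 8.69% in lymphocyte-like nuclei. The shares of members, between 24.6% and 34.4% in the 6 non-immune classes, lay above those of all genes. In myeloid-like nuclei 11.5% was near the share of all genes, and in lymphocyte-like nuclei 1.64% lay below. Of the 61 members, 20 were called in 1 class, 25 in 2 and 16 in 3 or more. The class with the highest mean level was the same in all 3 libraries for 49 of the 69. Calls per gene and the stability of the highest class were not counted over all genes. They are therefore not read as particular to the members.

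**Figure D1:**
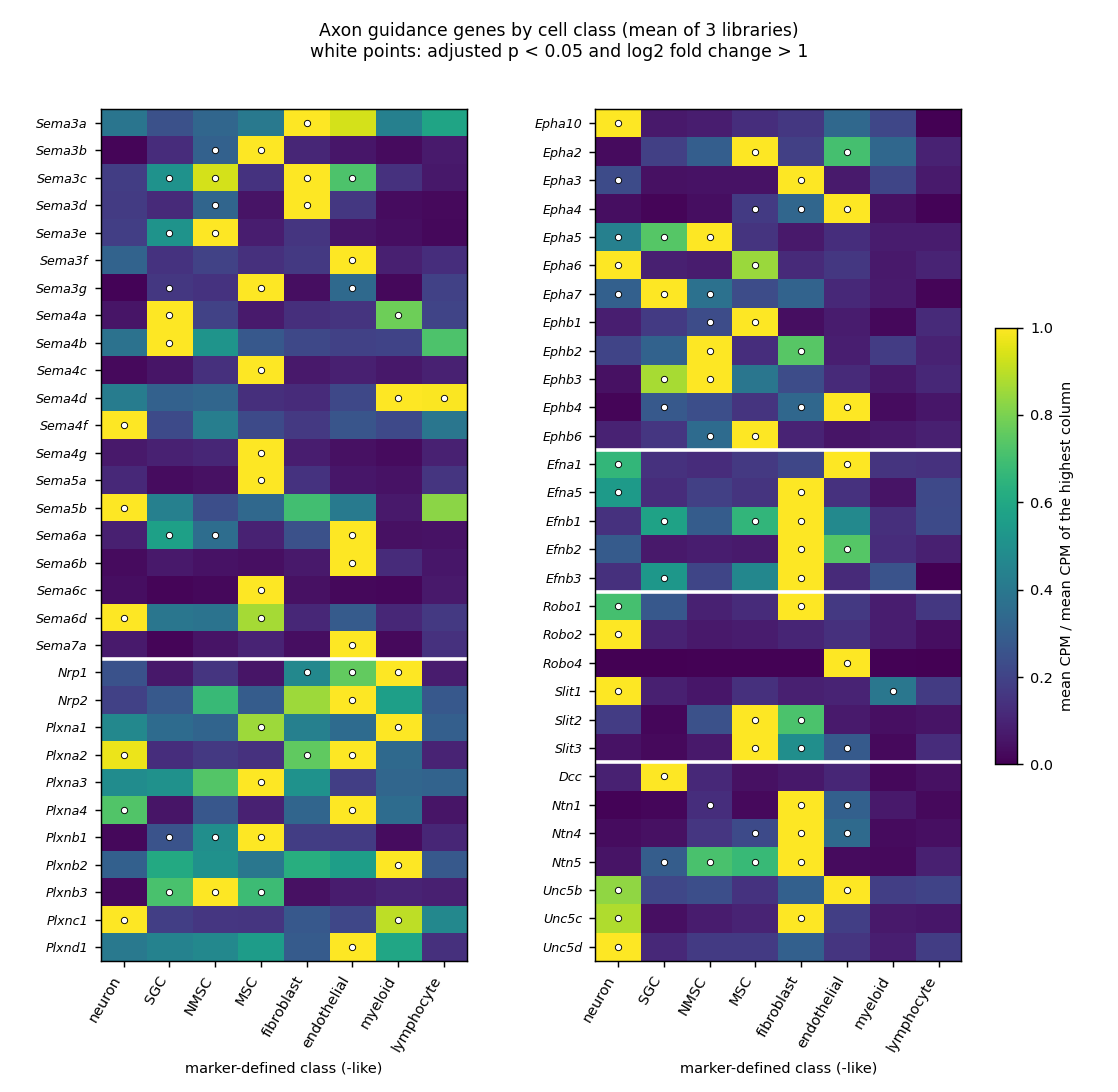
Mean level of the 61 tested members in each class, as a share of the level in the class where the member was highest (colour, 0 to 1). White points mark members called higher, 21 in endothelial-like and MSC-like nuclei each and 1 in lymphocyte-like nuclei.

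Among the secreted class 3 semaphorins, MSC-like, NMSC-like, fibroblast-like and endothelial-like nuclei each had different leading members. Sema3b, a ligand of neuropilin 2, stood at 324, 454 and 434 CPM in MSC-like nuclei (log2 fold change 3.88 ± 0.14), and NMSC-like nuclei followed with 80.3, 145 and 150. Sema3g was at 69.9, 138 and 144 CPM in MSC-like nuclei (3.76 ± 0.25), at 26.8, 54.5 and 38.2 in endothelial-like (1.90 ± 0.37; not called without aged replicate 1, 1.56) and at 24.7, 16.2 and 15.9 in SGC-like nuclei (1.08 ± 0.29; not called without the adult library, 0.57). Sema3e, which binds plexin D1 without a neuropilin, was at 146, 328 and 286 CPM in NMSC-like (3.38 ± 0.18) and at 53.9, 158 and 178 in SGC-like nuclei (2.32 ± 0.19), so that the adult value of the former lay under the aged values of the latter. Sema3d reached 141, 116 and 130 CPM in fibroblast-like nuclei (3.48 ± 0.27), at least 116 in every library, with NMSC-like nuclei at 17.2, 42.9 and 66.8. Sema3f, another neuropilin 2 ligand, was at 42.2, 52.4 and 44.6 CPM in endothelial-like nuclei (2.62 ± 0.25). Sema3c was called in 4 classes, fibroblast-like (132, 57.0 and 97.3 CPM), NMSC-like (74.6, 114 and 79.8), endothelial-like (72.8, 64.0 and 70.0) and SGC-like (60.1, 46.1 and 40.2), of which the fibroblast-like range overlapped with the other 3. Sema3a, the classic collapsing factor for sensory growth cones, was low throughout: 15.8, 11.1 and 15.1 CPM in fibroblast-like nuclei, where it was called with a log2 fold change of 1.09 ± 0.33 (edgeR, adjusted p = 0.0149), and its highest class differed between libraries. That call was lost without the adult library and without aged replicate 1 (log2 fold changes 1.25 and 1.05).

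The membrane semaphorins were called in different classes, 4 of them in MSC-like nuclei alone. Sema6c stood at 191, 271 and 322 CPM in MSC-like nuclei (log2 fold change 5.17 ± 0.18), the largest fold of any member there. Sema5a at 744, 869 and 939 CPM (3.84 ± 0.18), Sema4c at 276, 325 and 324 (3.83 ± 0.15) and Sema4g at 60.9, 84.1 and 80.8 (3.84 ± 0.20) were called there too. For each of these 4, every MSC-like value lay above every value of the class with the next highest mean. Endothelial-like nuclei held Sema7a, a lipid-anchored semaphorin that binds plexin C1 and integrins, at 227, 250 and 331 CPM (4.24 ± 0.18). Sema6b at 26.8, 48.3 and 79.6 (3.81 ± 0.34) and Sema6a, a ligand of plexins A2 and A4, at 510, 478 and 827 (2.73 ± 0.18) were higher there too. Sema6a was also called in SGC-like nuclei at 338, 355 and 338 CPM and in NMSC-like nuclei at 206, 184 and 260. SGC-like nuclei held Sema4b at 236, 143 and 145 CPM (1.81 ± 0.17) and Sema4a at 88.4, 67.1 and 93.2 (2.87 ± 0.19), the latter overlapping with the myeloid-like level of 106, 42.1 and 45.9. Sema4d, known as CD100 and a ligand of plexin B1, was called in myeloid-like (151, 178 and 170 CPM) and lymphocyte-like nuclei (212, 122 and 160), in which it was the only member called. Neuron-like nuclei held Sema6d at 558, 550 and 667 CPM (2.19 ± 0.17), Sema4f at 36.6, 56.6 and 53.9 (2.11 ± 0.19) and Sema5b at 9.74, 5.84 and 11.0 (1.88 ± 0.33), and Sema6d was called in MSC-like nuclei as well (434, 534 and 573). Sema5b was highest in neuron-like nuclei in only 1 library, and its range there overlapped with that in lymphocyte-like nuclei. The SGC-like range of Sema4b overlapped with the lymphocyte-like range too, though SGC-like nuclei were highest in all 3 libraries.

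Of the plexins and neuropilins, which receive semaphorins, 5 were called in endothelial-like, 4 each in MSC-like and myeloid-like, 3 in neuron-like and 2 each in SGC-like, NMSC-like and fibroblast-like nuclei. Plexin D1 was at 174, 176 and 213 CPM in endothelial-like nuclei, where it is known to pattern vessels (1.30 ± 0.15). Plexin A4, a receptor of class 3 and class 6 semaphorins, was called in endothelial-like (405, 537 and 729 CPM) and neuron-like nuclei (385, 383 and 447), which overlapped. Plexin A2 was called in those same classes at 226, 391 and 385 and 313, 333 and 326 CPM and in fibroblast-like nuclei at 273, 223 and 263. The class B plexins were glial and myeloid: Plxnb3 was at 98.0, 95.4 and 107 CPM in NMSC-like (3.06 ± 0.22), 60.4, 69.2 and 83.8 in SGC-like and 46.4, 91.2 and 67.5 in MSC-like nuclei. Plxnb1 was at 98.3, 125 and 142 CPM in MSC-like nuclei (3.17 ± 0.15), above NMSC-like (40.6, 57.9 and 82.8) and SGC-like nuclei (20.9, 36.6 and 36.7) in every library. Plxnb2 was called in myeloid-like nuclei alone, at 44.6, 50.4 and 69.9 CPM (1.07 ± 0.17), but not without aged replicate 2 (0.90). Plexin C1, a receptor of Sema7a, was at 245, 295 and 318 CPM in neuron-like (2.09 ± 0.16) and 164, 294 and 315 in myeloid-like nuclei (1.62 ± 0.19), and Plxna3 (30.5, 20.6 and 23.5 CPM) and Plxna1 (36.4, 55.5 and 44.0) were called in MSC-like nuclei, the latter not without aged replicate 1 (0.97). In myeloid-like nuclei Plxna1 was at 26.0, 64.4 and 68.9 CPM (1.21 ± 0.18). Neuropilin 1, which also serves the vascular growth factor VEGF, was at 214, 810 and 803 CPM in myeloid-like (2.50 ± 0.23), 470, 371 and 544 in endothelial-like and 205, 304 and 346 in fibroblast-like nuclei, with the adult myeloid-like value far under both aged ones. Neuropilin 2 was called in endothelial-like nuclei at 365, 403 and 490 CPM (1.26 ± 0.18).

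Of the Eph receptors, 6 were called in NMSC-like nuclei, 5 each in neuron-like and MSC-like, 4 each in SGC-like and fibroblast-like and 3 in endothelial-like nuclei. Epha10, which lacks an active kinase, stood at 20.6, 16.9 and 19.3 CPM in neuron-like nuclei (3.97 ± 0.35), the largest fold of any member there. Epha6 was at 389, 296 and 285 CPM in neuron-like (3.09 ± 0.19) and 218, 240 and 366 in MSC-like nuclei (2.66 ± 0.20), which overlapped. Epha5 was called in NMSC-like (151, 314 and 398 CPM; 2.64 ± 0.24), SGC-like (84.4, 305 and 246; 2.20 ± 0.24) and neuron-like nuclei (105, 136 and 133; 1.49 ± 0.24). Epha7 was highest in SGC-like nuclei at 69.2, 119 and 88.3 CPM (2.94 ± 0.24). Endothelial-like nuclei held Epha4, which binds ephrins of both classes, at 169, 219 and 315 CPM (4.21 ± 0.17) and Ephb4, the venous receptor of ephrin B2, at 89.4, 134 and 127 (3.17 ± 0.19). Epha3 was at 59.0, 110 and 42.5 CPM in fibroblast-like nuclei (3.44 ± 0.28), and aged replicate 1 gave the highest value. Without the adult library its log2 fold change was 5.25. MSC-like nuclei held Ephb1 at 84.9, 193 and 211 CPM (3.64 ± 0.24), the kinase-inactive Ephb6 at 39.4, 84.4 and 84.9 (3.16 ± 0.23) and Epha2 at 12.0, 14.6 and 13.3 (2.40 ± 0.31). NMSC-like nuclei held Ephb2 at 31.1, 87.9 and 97.3 CPM (2.34 ± 0.32) and Ephb3 at 22.9, 36.8 and 23.2 (2.64 ± 0.27), which overlapped with fibroblast-like (80.5, 42.6 and 36.9) and SGC-like nuclei (18.3, 20.7 and 33.2). The remaining calls of Eph receptors lay below the level in another class: Epha3 at 14.6, 17.0 and 16.5 (1.30 ± 0.29) and Epha7 at 22.1, 27.8 and 34.8 (1.00 ± 0.28) in neuron-like, Epha7 at 38.2, 36.1 and 29.0 (1.28 ± 0.33) and Ephb1 at 52.6, 42.9 and 18.9 (1.47 ± 0.31; -0.30 with scanpy clustering) in NMSC-like, and Epha4 at 40.9, 35.3 and 41.9 (1.43 ± 0.21) in MSC-like nuclei. In fibroblast-like nuclei Epha4 was at 76.7, 74.2 and 81.3 (2.45 ± 0.18) and Ephb4 at 36.1, 45.4 and 35.9 (1.39 ± 0.19), and in SGC-like nuclei Ephb4 had a mean of 32.5 ± 2.98 (SD, n = 3 libraries; 1.36 ± 0.18). Endothelial-like Epha2 was at 10.2, 8.39 and 9.55 (1.69 ± 0.44) and NMSC-like Ephb6 at 12.4, 24.5 and 36.3 (1.38 ± 0.30). Of these, Epha7 in neuron-like and Epha2 in endothelial-like nuclei were not called without aged replicate 1 (0.89 and 1.73) or aged replicate 2 (0.74 and 1.62), NMSC-like Epha7 not without aged replicate 1 (1.12) and Ephb6 not without aged replicate 2 (1.10), while without the adult library Epha3 and Epha7 in neuron-like nuclei stood at 3.03 and 2.22, NMSC-like Epha7 at 2.23 and MSC-like Epha4 at 2.34.

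Ephrins, the ligands, included 4 that were called in fibroblast-like nuclei. Efna5, a lipid-anchored ligand of EphA receptors, was at 676, 598 and 599 CPM in fibroblast-like (2.59 ± 0.22) and 357, 312 and 354 in neuron-like nuclei (1.89 ± 0.22), lower in the latter in every library. Efnb2, the arterial ligand of Ephb4, was at 106, 145 and 185 CPM in fibroblast-like (2.73 ± 0.23) and 85.6, 78.7 and 156 in endothelial-like nuclei (2.13 ± 0.30), and without the adult library these log2 fold changes were 4.34 and 3.71. Efnb1 was called in fibroblast-like (61.8, 51.5 and 65.2 CPM), MSC-like (47.9, 35.6 and 33.8) and SGC-like nuclei (33.4, 38.5 and 30.7), in MSC-like nuclei not without the adult library (0.95). Efna1 was at 35.8, 36.7 and 31.8 CPM in endothelial-like (2.29 ± 0.26) and 20.7, 25.9 and 22.4 in neuron-like nuclei. Efnb3 stayed low, at 18.4, 10.5 and 7.56 CPM in fibroblast-like (3.02 ± 0.62) and 6.29, 8.08 and 4.96 in SGC-like nuclei (2.27 ± 0.70), the latter not called without aged replicate 1 (1.97) or aged replicate 2 (2.29).

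Slits and Robos differed between neurons and their surroundings. Robo2, a Slit receptor, was at 932, 892 and 1012 CPM in neuron-like nuclei (3.81 ± 0.20), and no other class exceeded 200 CPM in any library. Robo1 was at 364, 229 and 341 CPM in fibroblast-like (2.48 ± 0.23) and 287, 172 and 197 in neuron-like nuclei (2.15 ± 0.22). Robo4, the Robo of blood vessels (chr9:37401897-37415115, plus strand of GRCm38), was at 106, 113 and 194 CPM in endothelial-like nuclei; its fitted log2 fold change of 8.53 ± 0.35 rests on near-absent levels elsewhere. Of the ligands, Slit1 was neuronal at 101, 99.3 and 141 CPM (3.10 ± 0.17), with 39.0, 43.8 and 52.2 in myeloid-like nuclei (1.34 ± 0.26). Slit2 (chr5:47983138-48307733, plus strand) was at 587, 951 and 925 CPM in MSC-like (3.37 ± 0.31) and 643, 587 and 541 in fibroblast-like nuclei (2.77 ± 0.32), which overlapped, and Slit3 at 289, 579 and 642 CPM in MSC-like (3.53 ± 0.21) and 264, 224 and 258 in fibroblast-like nuclei (2.26 ± 0.23). Endothelial-like Slit3 was at 85.6, 147 and 194 CPM (1.28 ± 0.28) and was not called without aged replicate 1 (1.19) or aged replicate 2 (0.98). SGC-like nuclei held Slit2 at only 12.6, 13.5 and 14.4 CPM, below the free RNA of 117, 117 and 77.7 CPM in barcodes of at most 100 UMIs.

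Of the netrins and their receptors, SGC-like nuclei had Dcc and Ntn5 called higher, and fibroblast-like nuclei Ntn1, Ntn4, Ntn5 and Unc5c. Dcc, the attractive netrin receptor, lies at chr18:71253634-72351069, minus strand of GRCm38, and stood at 270, 1012 and 858 CPM in SGC-like nuclei, above the neuron-like 85.2, 68.8 and 42.4 in every library (SGC-like log2 fold change 4.17 ± 0.24). In free RNA it stood at 63.4, 66.6 and 43.3 CPM. Its ligand Ntn1 was at 538, 304 and 371 CPM in fibroblast-like nuclei (4.34 ± 0.21), against 99.6, 105 and 169 in endothelial-like and 23.4, 55.9 and 78.4 in NMSC-like nuclei. Ntn4, a netrin of basement membranes, was at 114, 339 and 368 CPM in fibroblast-like (3.42 ± 0.21) and 54.9, 119 and 111 in endothelial-like nuclei (1.73 ± 0.30), and in MSC-like nuclei at 27.0, 69.0 and 88.0 (1.06 ± 0.27; not called without aged replicate 1, 1.16, or aged replicate 2, 0.74). Ntn5 was called in fibroblast-like (17.2, 13.3 and 13.2 CPM), NMSC-like (4.30, 12.3 and 14.5), MSC-like (5.99, 14.3 and 9.21) and SGC-like nuclei (5.07, 4.31 and 3.47); without aged replicate 1 the last 3 calls were lost (log2 fold changes 1.73, 1.54 and 0.99), and without the adult library the NMSC-like value was 4.11, the MSC-like value was over 1.5 times larger and the SGC-like call was lost (2.36). The repulsive receptor Unc5c (chr3:141465216-141834924, plus strand) was at 356, 351 and 318 CPM in neuron-like (3.12 ± 0.27) and 130, 392 and 642 in fibroblast-like nuclei (3.06 ± 0.29), and the fibroblast-like value was lower than the neuron-like in adult and higher in both aged libraries. Unc5d was called in neuron-like nuclei alone, at 43.7, 58.5 and 59.2 CPM (2.85 ± 0.21), and Unc5b in neuron-like (21.2, 24.1 and 25.6) and endothelial-like nuclei (20.4, 29.4 and 35.0).

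**Figure D2:**
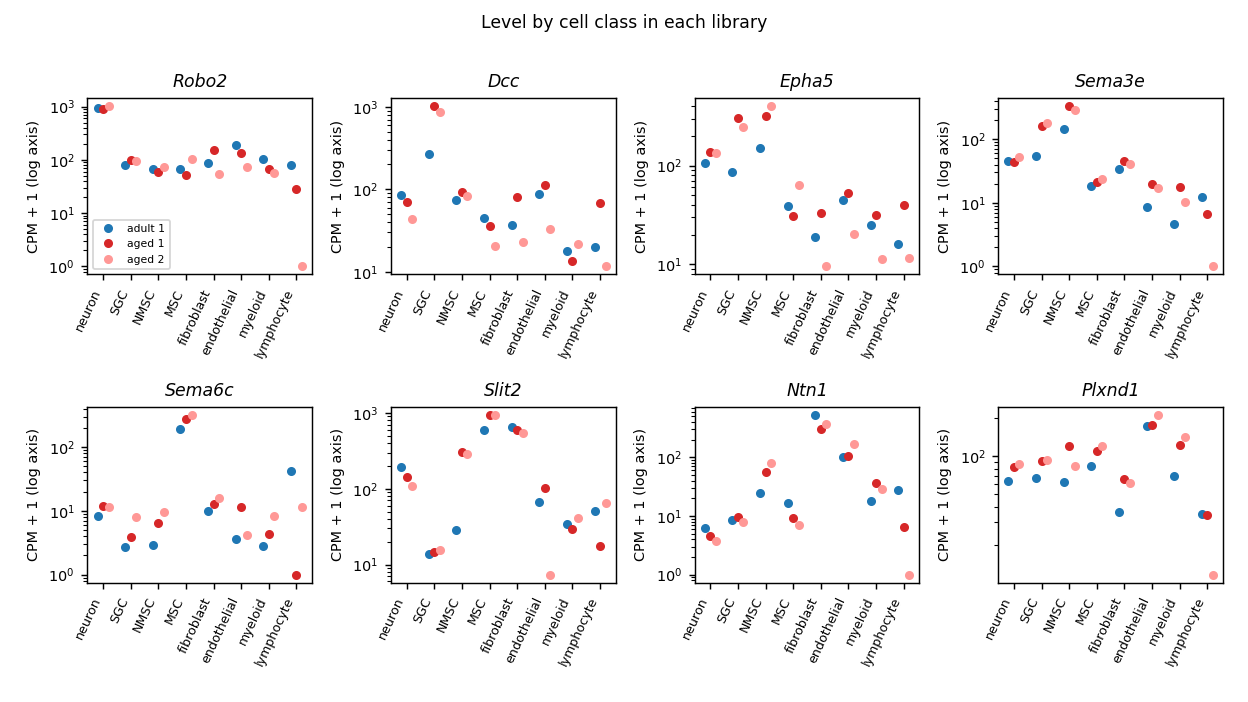
Level of 8 members (CPM + 1, log axis) by class, with 1 point per library. Robo2 was highest in neuron-like, Dcc in SGC-like, Sema6c in MSC-like and Ntn1 in fibroblast-like nuclei in all 3 libraries.

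The promoters of 2 members were read from RefSeq (GRCm38.p6), which held a promoter for 59 of the 69 members, as 250 bases before the start on the gene's strand. They are shown for a secreted semaphorin called in fibroblast-like nuclei and a membrane semaphorin called in MSC-like nuclei. Capitals mark CCGGAA, the core of the site of ETS factors, and ACAAAG, the core of the site of the glial SOX factors, on either strand. The windows are chr5:12382916-12383165 (plus strand) for Sema3d and chr3:95160170-95160419 (plus strand) for Sema6c.
Sema3d: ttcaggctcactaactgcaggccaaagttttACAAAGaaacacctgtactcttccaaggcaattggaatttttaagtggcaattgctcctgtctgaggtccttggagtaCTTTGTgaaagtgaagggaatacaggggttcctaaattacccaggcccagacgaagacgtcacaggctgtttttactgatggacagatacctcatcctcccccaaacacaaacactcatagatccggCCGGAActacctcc
Sema6c: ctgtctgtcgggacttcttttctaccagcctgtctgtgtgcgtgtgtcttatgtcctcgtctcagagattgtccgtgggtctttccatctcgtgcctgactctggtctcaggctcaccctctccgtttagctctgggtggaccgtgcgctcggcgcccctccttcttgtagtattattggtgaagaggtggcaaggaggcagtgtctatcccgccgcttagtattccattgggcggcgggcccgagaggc
The Sema3d window held both cores and the Sema6c window neither. CCGGAA was in such windows of 13.6% of 27025 genes, and in 4 of 12 members called in NMSC-like, 3 of 13 in SGC-like, 2 of 18 in fibroblast-like, 2 of 19 in MSC-like, 1 of 16 in neuron-like and 1 of 17 in endothelial-like nuclei. ACAAAG was in 18.6% of all genes, and in 2 of 12, 1 of 13, 2 of 18, 2 of 19, 2 of 16 and 0 of 17 members of these classes in the same order.

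Of the other genes of these pathways, a list of 57 co-receptors and downstream parts, 54 were tested by class. Unlike the members, the list was not left out of the clustering, so its class calls are not independent of how the classes were formed. L1cam is on the list and is also an NMSC marker, and it was among the calls in NMSC-like nuclei. Of these, 20 were called higher in neuron-like, 13 in SGC-like, 12 in NMSC-like, 10 in MSC-like, 10 in fibroblast-like, 8 in endothelial-like, 7 in myeloid-like and 1 in lymphocyte-like nuclei. Of all genes, 18.1%, 11.4%, 8.44%, 9.20%, 11.9%, 8.99%, 14.5% and 8.69% were called higher in the same order, and the list's shares in myeloid-like and lymphocyte-like nuclei lay below these.

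Within the neuron-like nuclei, 64 members were tested across 6 marker-defined subtypes: nonpeptidergic (NP), peptidergic (PEP), neurofilament (NF), tyrosine hydroxylase (TH), TRPM8 and somatostatin (SST) neurons. A call holds among these 6 only. A pair of neuron-like clusters, cluster 6 with 541, 260 and 132 nuclei (led by Chrna7) and cluster 22 with 138, 50 and 13 nuclei (led by Il1rapl2), passed no subtype's markers and was left out of the test, and in 19 of the 76 member and subtype pairs called, 13 members in all, at least 1 of these clusters stood above the subtype in every library. NF-like nuclei, which correspond to large myelinated sensory neurons, had 24 members called higher, TRPM8-like 15, PEP-like and TH-like 14 each, NP-like 5 and SST-like 4. Of 16767 genes tested, 12.3% were called higher in NF, 6.64% in TRPM8, 6.55% in PEP, 6.97% in TH, 6.66% in NP and 5.37% in SST. The member shares of 7.81% in NP and 6.25% in SST were near these backgrounds, while 37.5% in NF, 23.4% in TRPM8 and 21.9% in PEP and TH were above them.

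NF neurons had 2 Slits and a Robo called higher. Slit2 was at 604, 439 and 405 CPM (4.20 ± 0.17), Slit3 at 92.8, 47.2 and 58.4 (2.83 ± 0.18) and Robo1 at 742, 370 and 545 (3.79 ± 0.19). Robo2, in contrast, was called in no subtype. Epha6 had the largest fold, at 827, 629 and 776 CPM (4.80 ± 0.13), against 28.8, 14.0 and 14.4 in NP neurons, 752, 699 and 641 in the untyped cluster 6 and 1055, 736 and 935 in the untyped cluster 22. Dcc was at 248, 182 and 134 CPM (3.12 ± 0.13), with 35.1, 53.6 and 46.8 in TRPM8 neurons, the next highest. Unc5c, which can turn a netrin signal to repulsion, was at 618, 538 and 461 CPM (2.37 ± 0.17). Of the semaphorins, Sema5b (26.4, 15.4 and 45.4 CPM; 3.71 ± 0.26), Sema3d (36.0, 40.8 and 34.5; 2.45 ± 0.23), Sema7a (43.1, 54.2 and 51.4; 2.55 ± 0.14) and Sema6a (96.1, 129 and 125; 2.23 ± 0.21) were called. Efnb2 at 84.1, 85.8 and 113 CPM (2.52 ± 0.14) and Epha10 at 55.5, 42.1 and 50.2 (2.46 ± 0.15) were called as well, as were the receptors Nrp1 (141, 145 and 226; 1.53 ± 0.17), Nrp2 (71.8, 89.4 and 132; 1.65 ± 0.18), Plxna1 (34.7, 56.5 and 56.4; 1.56 ± 0.12) and Unc5a (8.26, 13.1 and 13.5; 1.39 ± 0.18). Eph receptors called in NF were also Ephb1 (35.6, 23.6 and 23.4 CPM; 1.87 ± 0.24; 1.20 without the adult library), Ephb2 (34.6, 31.2 and 29.4; 1.78 ± 0.18), Epha3 (20.4, 16.2 and 17.3; 1.48 ± 0.24) and Ephb3 (1.86, 1.92 and 2.32; 1.16 ± 0.39), the last not without aged replicate 2 (0.76) and at 2.08 without the adult library. Sema5a (93.1, 84.3 and 68.1 CPM; 2.02 ± 0.19), Sema3f (21.6, 33.9 and 32.2; 1.87 ± 0.15), Sema6b (4.95, 1.83 and 3.25; 2.13 ± 0.34) and Efna3 (1.14, 2.44 and 1.70; 2.39 ± 0.51) completed the 24. Sema3d stood higher in cluster 22 than in NF neurons, at 79.4, 134 and 120 CPM, and Nrp1 (512, 314 and 338), Nrp2 (144, 200 and 200), Epha3 (54.5, 95.8 and 85.3), Ephb3 (2.54, 3.96 and 3.48) and Sema5a (375, 611 and 451) did so too.

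TH neurons, the low-threshold C fibres that sense gentle touch, had both Sema3e and neuropilin 1 called higher. Sema3e was at 199, 274 and 300 CPM (4.18 ± 0.14), against 11.6, 12.6 and 15.9 in NP neurons, and Nrp1 at 525, 416 and 508 (3.46 ± 0.16). Plexin D1, the receptor that Sema3e binds without a neuropilin, was at 11.5, 24.0 and 18.5 CPM in TH neurons (-2.07 ± 0.14), against 148, 149 and 151 in NP neurons. Robo1 was at 236, 304 and 350 CPM (2.90 ± 0.20) and Slit1 at 289, 313 and 366 (1.92 ± 0.09). Unc5a, a netrin receptor too low to test across classes, was at 16.4, 26.8 and 26.0 CPM (2.69 ± 0.18). The ephrins Efnb2 (69.2, 96.4 and 103 CPM; 2.53 ± 0.15), Efnb1 (28.3, 28.9 and 23.9; 2.09 ± 0.17) and Efna5 (544, 582 and 631; 1.44 ± 0.08) were called together with Efna2 (6.64, 3.88 and 5.38), which was not called without the adult library (0.79). The plexins Plxna4 (522, 483 and 561 CPM; 1.45 ± 0.14), Plxna1 (32.8, 60.4 and 49.6; 1.60 ± 0.13) and Plxna3 (26.2, 31.1 and 40.3; 1.86 ± 0.18) were called in TH neurons, and so were Sema7a (31.8, 37.4 and 34.4; 2.03 ± 0.16) and Sema4g (12.7, 10.9 and 18.2; 2.31 ± 0.22). Robo1 in cluster 22 (489, 567 and 432 CPM) and Plxna4 in cluster 6 (986, 1031 and 1154) stood above TH neurons.

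TRPM8 neurons, the cold sensors, held Ntn4 at 61.3, 107 and 90.1 CPM (3.78 ± 0.19) and Sema4g at 27.5, 23.9 and 36.4 (3.45 ± 0.22). The netrin receptor Unc5d was at 210, 270 and 284 CPM (2.73 ± 0.21), and Slit2 at 189, 158 and 244 (2.61 ± 0.20), lower than in NF neurons in every library. Eph receptors called in TRPM8 neurons were Epha10 (35.1, 38.4 and 72.8 CPM; 2.30 ± 0.19), Ephb1 (16.5, 34.7 and 59.8; 2.11 ± 0.31), Epha8 (4.65, 4.41 and 11.3; 1.79 ± 0.41), Epha3 (14.4, 17.0 and 21.7; 1.36 ± 0.33), Ephb2 (21.1, 30.9 and 24.3; 1.34 ± 0.25) and Epha7 (49.9, 40.3 and 61.5; 1.00 ± 0.19). Sema4a (8.03, 10.7 and 15.6 CPM; 1.47 ± 0.38), Sema6c (18.2, 17.0 and 28.6; 1.24 ± 0.22), Plxna3 (29.2, 23.9 and 26.9; 1.43 ± 0.22), Plxnb1 (5.49, 8.19 and 7.80; 1.43 ± 0.45) and Unc5c (217, 250 and 381; 1.19 ± 0.20) made up the rest. Leaving out aged replicate 1 removed the TRPM8 calls of Epha3 (1.35), Ephb2 (0.99), Sema4a (1.33) and Plxnb1 (1.33), aged replicate 2 those of Sema4a (1.12), Unc5c (0.88), Epha7 (0.99) and Plxnb1 (1.31), and the adult library that of Epha7 (0.79), while Sema4a stood at 2.28 without the adult library. Cluster 22 stood above TRPM8 neurons for Epha3, and both untyped clusters for Unc5c (531, 523 and 511 CPM in cluster 6 and 552, 636 and 492 in cluster 22).

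Peptidergic neurons, which include heat and pain sensors, had 3 EphA receptors called higher, of which Epha3 and Epha8 were also called in TRPM8 neurons. Epha5 was at 205, 264 and 278 CPM (2.83 ± 0.16), Epha3 at 19.5, 33.2 and 45.0 (2.36 ± 0.23) and Epha8 at 10.1, 14.2 and 19.0 (3.11 ± 0.26). Unc5b (47.5, 58.4 and 68.5 CPM), Unc5c (273, 342 and 371) and Unc5d (101, 149 and 165) were all called in PEP neurons. Plxna4 (529, 581 and 645 CPM; 1.44 ± 0.14), Plxna2 (338, 437 and 357; 1.26 ± 0.10), Plxnb2 (25.6, 27.8 and 37.5; 1.04 ± 0.12), Nrp2 (82.9, 112 and 79.0; 1.44 ± 0.18), Ephb6 (10.7, 13.8 and 9.71; 1.28 ± 0.17), Sema5a (56.1, 75.7 and 22.2; 1.02 ± 0.21), Sema4a (10.3, 7.56 and 8.59; 1.04 ± 0.29) and Ntn5 (2.13, 2.83 and 2.80; 2.42 ± 0.39) were called there as well. Sema5a was not called without aged replicate 1 (0.65), nor Plxnb2 without the adult library (0.99) or aged replicate 2 (0.96). Epha5 in cluster 6 (275, 382 and 358 CPM), Epha3 in cluster 22 and Plxna4 in cluster 6 stood above PEP neurons in every library, as did Unc5c, Plxna2, Nrp2 and Sema5a in both clusters. NP neurons held plexin C1 at 715, 673 and 672 CPM (2.08 ± 0.10), plexin D1 at 148, 149 and 151 (1.69 ± 0.09), Efna1 at 43.4, 46.5 and 37.9, Sema4b at 113, 103 and 137 and Sema6d at 707, 756 and 837. Sema6d stood higher in cluster 6, at 1132, 970 and 1036 CPM. In SST neurons, Sema4c was at 23.9, 47.1 and 35.2 CPM (2.19 ± 0.26) and Sema3c at 34.9, 65.1 and 74.4 (1.66 ± 0.27), with Plxnc1 at 402, 593 and 541 (1.35 ± 0.11) and Sema3f at 15.6, 22.2 and 17.6 (1.02 ± 0.28), the last not called without the adult library (1.02) or aged replicate 1 (1.01).

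**Figure D3:**
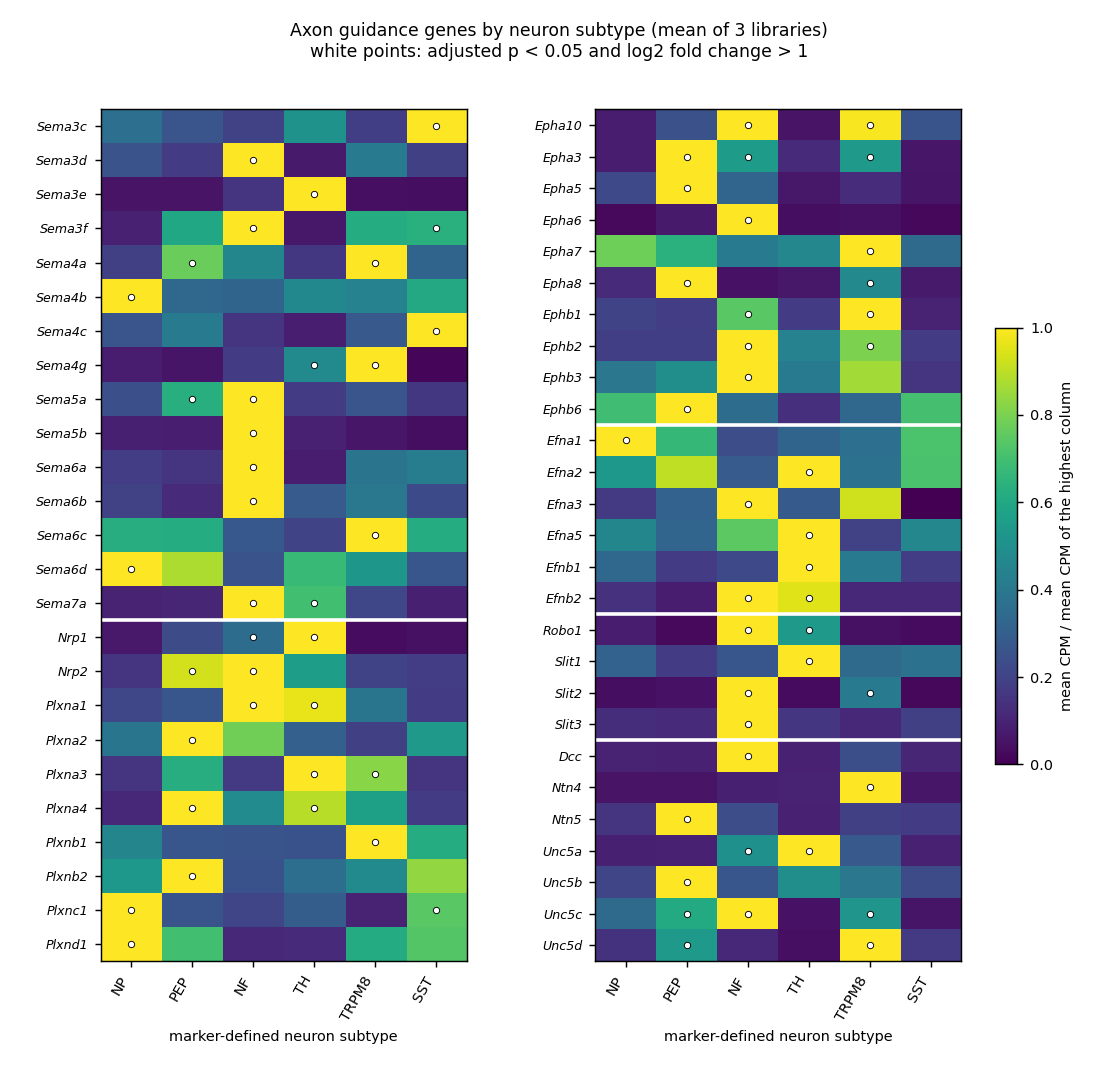
Mean level of the 52 members called in at least 1 neuron subtype, as a share of the level in the subtype where the member was highest (colour, 0 to 1). White points mark members called higher, 24 of them in NF and 4 in SST neurons.

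Fibroblast-like nuclei fell into subsets EF, EM and PM, named from marker lists. The study uses these letters without spelling them out, so the subsets are not assigned to layers of the nerve here. A fibroblast-like cluster of 137, 21 and 11 nuclei with no subset's markers was left out. EF-like nuclei had 12 of 36 tested members called higher, PM-like 6 and EM-like 5, against 6.16%, 3.92% and 5.74% of the 9637 genes tested. Slit2 was highest in EF-like nuclei, at 1300, 1875 and 1405 CPM (4.04 ± 0.26), against 294, 228 and 126 in PM-like and 17.8, 67.0 and 41.3 in EM-like nuclei. Slit3 (587, 477 and 522 CPM; 2.58 ± 0.26), plexin A4 (328, 429 and 492; 2.80 ± 0.18), Epha3 (86.9, 279 and 114; 3.63 ± 0.44) and Ntn1 (786, 453 and 562; 1.37 ± 0.20) were called in EF-like nuclei as well. So were Plxna2 (322, 508 and 441 CPM; 1.96 ± 0.20), Robo1 (286, 327 and 411; 1.24 ± 0.18), Sema3c (241, 68.1 and 232; 1.96 ± 0.34), Sema3e (61.6, 72.5 and 100; 2.04 ± 0.36), Epha4 (76.9, 123 and 81.1; 1.41 ± 0.21) and Epha7 (56.4, 48.3 and 35.1; 1.83 ± 0.30). EM-like nuclei held Ntn4 at 277, 585 and 592 CPM (1.39 ± 0.14), Efnb2 at 228, 235 and 295 (2.07 ± 0.17), Sema6a at 371, 278 and 218 (2.27 ± 0.28), Plxnd1 at 72.9, 94.6 and 88.4 (1.24 ± 0.31) and Sema3b at 55.0, 59.1 and 61.9 (1.13 ± 0.27). PM-like nuclei held Ephb2 at 124, 61.6 and 61.4 CPM (1.31 ± 0.20). Sema3d was called in PM-like nuclei at 187, 133 and 202 CPM (1.84 ± 0.34) and in EF-like nuclei at 141, 189 and 165 (1.80 ± 0.34), and DESeq2 called it in EF-like nuclei alone. Sema6a (179, 225 and 260 CPM; 1.61 ± 0.29; 2.54 without the adult library), Epha6 (91.4, 83.0 and 25.3; 1.51 ± 0.23), Efnb1 (101, 66.9 and 152; 1.19 ± 0.24) and Sema4c (32.4, 30.8 and 43.3; 1.31 ± 0.34) were called in PM-like nuclei too. The calls of Plxnd1, Sema3b and Sema4c were lost without the adult library (0.94, 0.75 and 0.89), those of Plxnd1, Sema4c and Efnb1 without aged replicate 2 (1.27, 1.23 and 0.87) and that of Sema3b without aged replicate 1 (1.19).

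The comparison of aged with adult libraries asked which members differ with age within a class. It rests on 1 adult library and 2 aged ones, with 1 residual degree of freedom, so age and other features of the adult library cannot be told apart. Here a member was called when edgeR's adjusted p was under 0.05, in either direction. SGC-like nuclei of the aged libraries had more UMIs (medians 3184, 7362 and 8140), while neuron-like medians were 7359, 5646 and 7706. The share of the nuclear RNA Malat1 was smaller in the aged libraries (SGC-like medians 8.93%, 2.44% and 2.60%). The part of UMIs and Malat1 in the results was not tested. The DESeq2 test called fewer members in 5 of the 7 classes, and its counts stand beside each result.

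**Figure D4:**
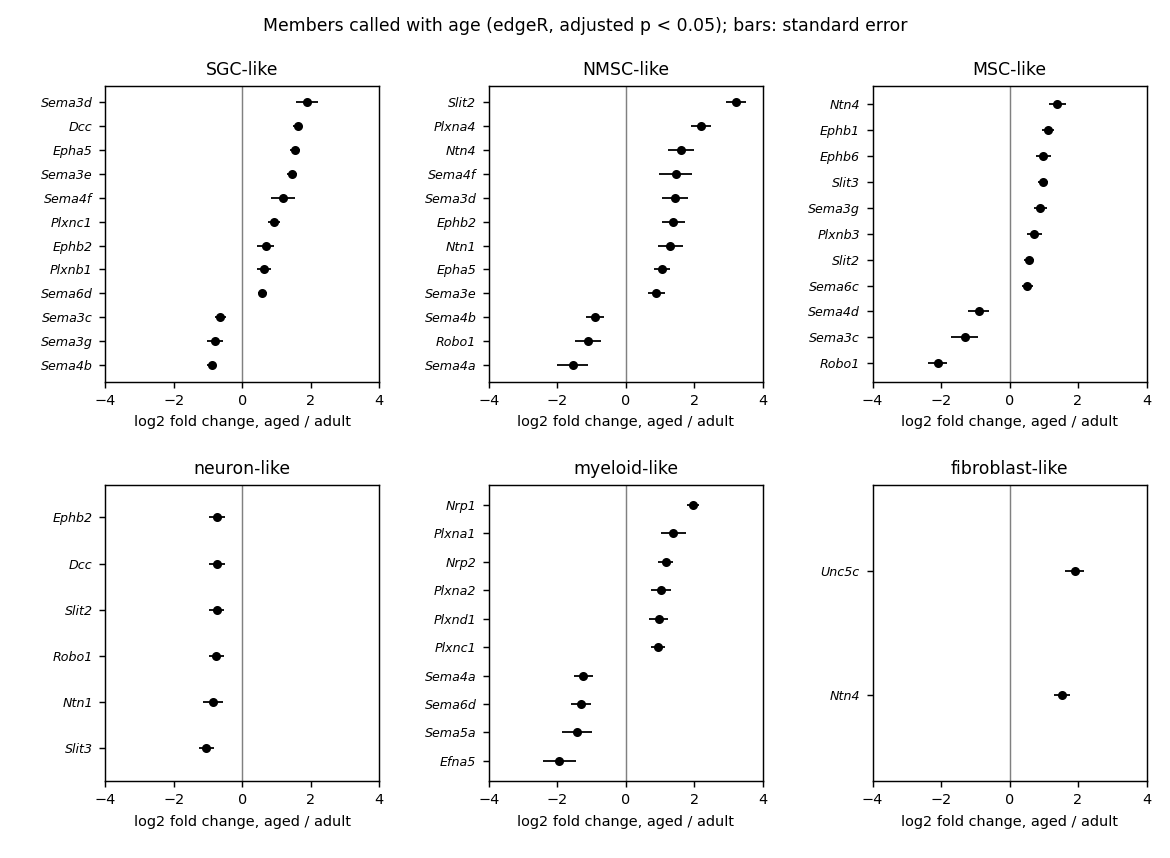
Log2 fold change of aged over adult, with its SE, for every member called with age in 6 classes. All 6 members called in neuron-like nuclei lay below 0, and 9 of 12 in SGC-like nuclei above 0.

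In SGC-like nuclei, the glia that wrap sensory neuron bodies, 12 of 63 members were called with age, 9 higher and 3 lower, when 15.1% of all genes were called. Dcc rose from 270 CPM to 1012 and 858 (log2 fold change 1.62 ± 0.13; edgeR, adjusted p = 3.65e-15). Epha5 rose with levels of 84.4, 305 and 246 CPM (1.54 ± 0.14), Sema3e with 53.9, 158 and 178 (1.46 ± 0.15) and Sema3d, from a low level, with 5.07, 25.6 and 15.4 (1.89 ± 0.32). Both aged libraries lay above the adult for each of these. Sema4f (1.18 ± 0.35), Plxnc1 (0.93 ± 0.18), Ephb2 (0.68 ± 0.24), Plxnb1 (0.63 ± 0.21) and Sema6d (0.58 ± 0.13) also rose. Sema4b fell, with 236, 143 and 145 CPM (-0.89 ± 0.13), as did Sema3g (-0.80 ± 0.24) and Sema3c (-0.64 ± 0.17). DESeq2 called 4 of the 63, namely Dcc, Epha5, Sema3e and Sema4b. With nuclei thinned to 1000 UMIs each, the log2 fold change of Dcc was 1.69 and that of Epha5 1.58. The SGC-like nuclei formed 1 cluster here. With scanpy 3 clusters were named SGC-like, which took in 671, 109 and 53 of the NMSC-like nuclei beside 2871, 386 and 204 of the SGC-like nuclei. These were clusters of 2390, 38 and 17 and of 1151, 69 and 43 nuclei (adult, aged replicate 1 and aged replicate 2), and a cluster of 150, 400 and 199 nuclei with Dcc as its leading gene. Over the 3 clusters together the log2 fold change of Dcc was 1.73. The neuron marker list summed to 1262, 1878 and 1825 CPM in SGC-like nuclei, with 12 of 12 markers higher in both aged libraries and none at 0; its part in these results was not tested.

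In NMSC-like nuclei, the Schwann cells of unmyelinated fibres, 12 of 54 members were called, 9 higher and 3 lower, against 8.69% of all genes. Slit2 rose from 27.7 CPM to 300 and 283 (3.21 ± 0.30; edgeR, adjusted p = 3.96e-24), the largest change of any member. Plexin A4 rose with levels of 39.2, 167 and 247 CPM (2.19 ± 0.29), and Ntn4 (1.61 ± 0.39), Sema4f (1.45 ± 0.49), Sema3d (1.43 ± 0.39), Ephb2 (1.38 ± 0.33), Ntn1 (1.30 ± 0.36), Epha5 (1.05 ± 0.24) and Sema3e (0.89 ± 0.24) rose as well. Sema4a (-1.55 ± 0.45), Robo1 (-1.12 ± 0.38) and Sema4b (-0.91 ± 0.27) fell. DESeq2 called Slit2, Plxna4 and Epha5. The fibroblast marker list summed to 525, 1432 and 1391 CPM in these nuclei, with 11 of 11 markers higher in both aged libraries and none at 0, and the MSC list to 1346, 2201 and 1524, with 8 of 9 higher; both types carry more Slit2. The SGC list, a type that carries more Sema4a and Sema4b, summed to 1993, 1800 and 1270, with 7 of 8 lower in both aged libraries and none at 0. The part of these types in the results was not tested. When nuclei were clustered with scanpy instead, the NMSC-like cluster kept 81 of 768 adult nuclei of this class, 156 of 295 of aged replicate 1 and 84 of 143 of aged replicate 2, most of the others being named SGC-like. The log2 fold change of Slit2 in that cluster was 1.87, between nuclei selected unequally by age.

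In MSC-like nuclei, which myelinate large axons, 11 of 58 members were called, 8 higher and 3 lower, against 10.1% of all genes. Robo1 fell, with 71.4, 12.4 and 29.7 CPM (-2.10 ± 0.27; edgeR, adjusted p = 1.79e-10). In free RNA Robo1 stood at 146, 88.8 and 79.3 CPM, above its MSC-like level in every library. Slit3 rose with 289, 579 and 642 CPM (0.97 ± 0.15) and Slit2 with 587, 951 and 925 (0.57 ± 0.14). Ntn4 (1.39 ± 0.25), Ephb1 (1.13 ± 0.18), Ephb6 (0.99 ± 0.23), Sema3g (0.90 ± 0.19), Plxnb3 (0.72 ± 0.22) and Sema6c (0.51 ± 0.16) rose, and Sema3c (-1.31 ± 0.40) and Sema4d (-0.90 ± 0.31) fell. DESeq2 called Ephb1 and Slit3. Without aged replicate 1 the log2 fold change of Robo1 was -1.36 and that of Plxnb3 0.44. The MSC markers themselves summed to 42944, 19108 and 17859 CPM, with 5 of 9 higher and 3 lower in both aged libraries. The neuron list summed to 2465, 1929 and 1728, with 12 of 12 markers lower in both aged libraries. The B lymphocyte list summed to 80.9, 29.3 and 26.6, with 8 of 8 lower and 2 at 0 in a library. The part of these lists was not tested.

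In neuron-like nuclei 6 of 68 members were called, all lower, against 8.81% of all genes, so that the share of members was that of all genes. These were Slit3 (36.0, 19.4 and 18.3 CPM; -1.05 ± 0.22), Ntn1 (5.32, 3.61 and 2.73; -0.86 ± 0.29), Robo1 (287, 172 and 197; -0.76 ± 0.22), Slit2 (192, 141 and 107; -0.75 ± 0.22), Dcc (85.2, 68.8 and 42.4; -0.74 ± 0.22) and Ephb2 (19.2, 13.1 and 12.0; -0.74 ± 0.23). DESeq2 called Slit3 and Robo1, and with free RNA subtracted none of the 6 was called and the log2 fold change of Ntn1 turned to 6.31. Clusters with little Malat1 made up 19.0%, 40.9% and 29.3% of the neuron-like nuclei; without those clusters 6 members were called. The log2 fold change of Dcc was -1.12 without aged replicate 1 and -0.46 without aged replicate 2. The neuron list summed to 10826, 9160 and 8968 CPM, with 2 of 12 markers higher and 5 lower in both aged libraries. The fibroblast list summed to 525, 573 and 601, with 2 of 11 higher and 6 lower. For the MSC list the sums were 458, 406 and 299, with 1 of 9 higher and 4 lower. The part of these lists was not tested.

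By subtype, NF neurons had 6 of 63 members lower with age, 5.81% of all genes being called: Slit3 (92.8, 47.2 and 58.4 CPM; -1.03 ± 0.25), Robo1 (-0.91 ± 0.24), Dcc (248, 182 and 134; -0.87 ± 0.24), Unc5d (-0.85 ± 0.25), Ephb1 (-0.82 ± 0.26) and Slit2 (-0.74 ± 0.24). NP neurons had 7 of 61 called (9.63% of all genes), of which Sema5a (34.1, 15.0 and 11.1 CPM; -1.50 ± 0.22), Epha6 (-1.15 ± 0.23), Sema3a (-1.05 ± 0.35) and Slit3 (-0.96 ± 0.30) fell and Sema3d (1.35 ± 0.33), Sema6a (0.78 ± 0.24; 0.46 without aged replicate 1) and Epha7 (0.71 ± 0.21) rose. Epha5 (32.2, 8.31 and 2.71 CPM; -2.66 ± 0.76) and Unc5d (-1.93 ± 0.45) fell in SST neurons (2.37% of all genes), and Ephb2 (-1.38 ± 0.37) in TH neurons (2.57%). No member was called by edgeR in PEP (1.67% of all genes; 5 members at an unadjusted p under 0.05) or TRPM8 neurons (1.16%; 3 members), and none by DESeq2. Outside NP neurons, where it called Sema5a and Epha6, DESeq2 called no member in any subtype. In NP neurons both of these lay below their free RNA levels in every library. Those levels were 107, 169 and 164 CPM for Sema5a and 196, 133 and 116 CPM for Epha6. NF neurons pooled several clusters whose mix differed between libraries. Cluster 2 held 768, 334 and 136 nuclei, and cluster 5, which had little Malat1, held 373, 463 and 136. Clusters with little Malat1 made up 30.8%, 57.8% and 45.1% of NF nuclei. The part of this mix of clusters in the NF results was not tested. The SST neurons numbered only 69, 56 and 36 nuclei. Their Epha5 lay below its free RNA level of 62.8, 73.8 and 61.5 CPM in every library.

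In myeloid-like nuclei, which include macrophages, 10 of 39 members were called against 14.1% of all genes. Neuropilin 1 rose from 214 CPM to 810 and 803 (1.95 ± 0.18; edgeR, adjusted p = 3.98e-05), and Plxna1 (1.38 ± 0.37), Nrp2 (1.16 ± 0.22), Plxna2 (1.02 ± 0.29), Plxnd1 (0.96 ± 0.28) and Plxnc1 (0.93 ± 0.20) rose with it, all of them semaphorin receptors. Efna5 (-1.95 ± 0.48), Sema5a (-1.43 ± 0.44), Sema6d (-1.31 ± 0.30) and Sema4a (-1.24 ± 0.29) fell. DESeq2 called Nrp1 alone. Without aged replicate 1 the log2 fold change of Sema5a was -0.95. The T lymphocyte list summed to 1890, 1524 and 1206 CPM in these nuclei, with 8 of 9 markers lower in both aged libraries. The neuron list summed to 2850, 1192 and 1010, with 12 of 12 lower. The MSC list summed to 1470, 890 and 658, with 6 of 9 lower and 1 higher. For the fibroblast list the sums were 760, 477 and 262, with 5 of 11 lower and 0 higher. The part of these lists was not tested. With scanpy clustering, the myeloid-like cluster kept 51 of 200 adult nuclei of this class, 198 of 288 of aged replicate 1 and 142 of 230 of aged replicate 2. The log2 fold change of Nrp1 in that cluster was 1.19, between nuclei selected unequally by age.

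In fibroblast-like nuclei Unc5c rose, with 130, 392 and 642 CPM (1.90 ± 0.28; edgeR, adjusted p = 0.00218), and Ntn4 with 114, 339 and 368 (1.54 ± 0.23); both tools called these 2 of 61, against 1.78% of all genes by edgeR. In endothelial-like nuclei edgeR and DESeq2 each called 0 of 48 members, 11 had an unadjusted edgeR p under 0.05, and 0.442% of all genes were called.

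**Figure D5:**
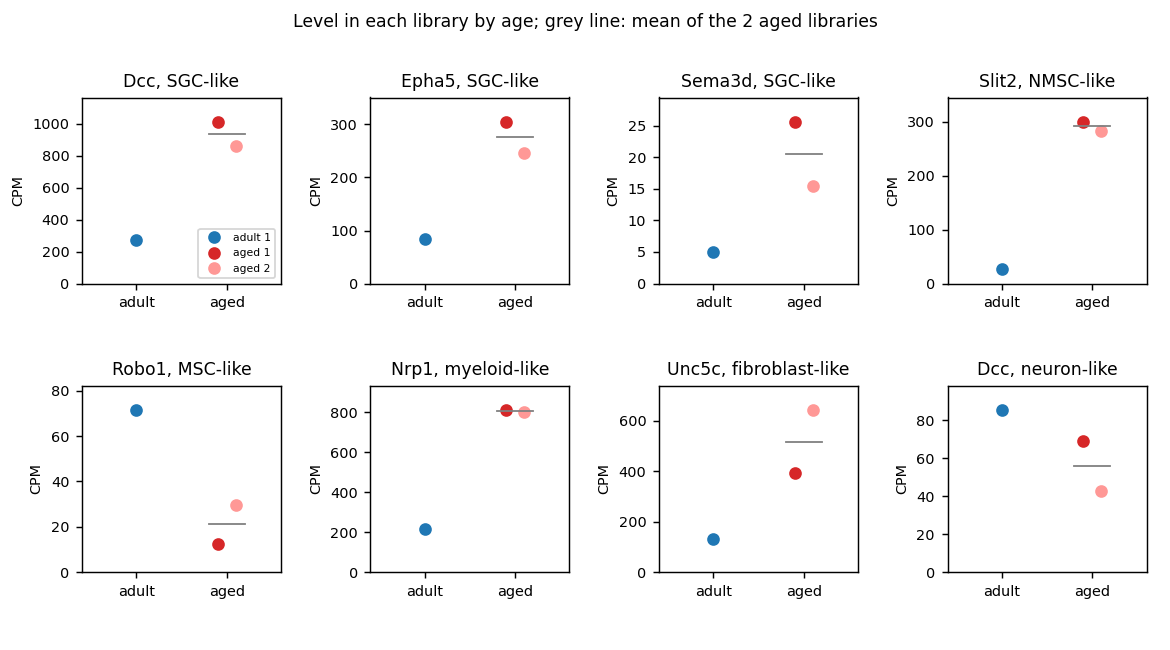
Level (CPM) in each library by age for 8 member and class pairs, with the mean of the 2 aged libraries as a grey line. Dcc lay higher in both aged libraries in SGC-like nuclei and lower in both in neuron-like nuclei.

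The age effect in neuron-like nuclei differed from that in SGC-like nuclei for 9 of 68 members (edgeR, test of the interaction), while 2.34% of all genes did so. Dcc had the largest difference, -2.40 ± 0.21 on the log2 scale. Of the pathway list, age calls by edgeR numbered 7 of 52 in SGC-like, 14 of 51 in NMSC-like, 10 of 54 in MSC-like, 1 of 57 in neuron-like, 1 of 54 in fibroblast-like, 1 of 54 in endothelial-like and 12 of 50 in myeloid-like nuclei. All genes were called at 15.1%, 8.69%, 10.1%, 8.81%, 1.78%, 0.442% and 14.1% in that order. The pathway share of 13.5% in SGC-like nuclei was near that of all genes, and 1.75% in neuron-like nuclei lay below. DESeq2 called 2, 3, 2, 0, 0, 0 and 2 of the pathway list.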

How the data were processed

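Nuclei of lumbar DRG were profiled by the authors with PIP-seq, and the deposited matrices hold unnormalized UMI counts for each barcode, made with Pipseeker against mm10 (per the labels). Members, marker lists and the pathway list were chosen with earlier results of these data known.

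Barcodes with more than 1000 genes were kept. Nuclei were clustered with Seurat 5.3.0 (SCTransform per age, integration by age, 30 components, resolution 0.8) on 2961 variable genes, the members left out. A cluster was named from at least 3 markers at over 2 times their mean in the remaining clusters (for neuron markers, above the mean) and had a UMI in at least 10% of its nuclei. This naming rule was set after the clusters were seen. Clusters with markers of several lineages were left out, and no doublet caller was run.

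Counts were summed per library and class, with at least 20 nuclei in every library, and tested with edgeR 4.0.16 (TMM scaling, quasi-likelihood test, library as a term in comparisons between classes) in R 4.3.3. P-values were adjusted over all genes tested by the Benjamini-Hochberg method. By rule, members called higher with at least 100 UMIs over the named nuclei were given with their level in each library (Ephb4 in SGC-like nuclei as a mean), and members called with age were all named. Alternatives were DESeq2 1.42.0, other scaling, filters and clusterings, free RNA subtraction (from barcodes of at most 100 UMIs), thinning to 1000 UMIs, and leaving out each library. The scripts' tests were run on simulated data.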

Additional observations from a re-analysis of the deposited data

Results flagged for a closer look

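The age effect differed between neuron-like and SGC-like nuclei for 9 members by edgeR's test of the interaction, as the log2 fold change with age in neuron-like minus that in SGC-like nuclei. Dcc differed by -2.40 ± 0.21 (adjusted p = 1.65e-27), being higher with age in SGC-like and lower in neuron-like nuclei. Sema3d differed by -1.65 ± 0.32, Sema3e by -1.47 ± 0.22, Ephb2 by -1.42 ± 0.28, Epha5 by -1.32 ± 0.20, Robo1 by -0.79 ± 0.21 and Plxnc1 by -0.74 ± 0.23. Sema4b (0.89 ± 0.21) and Sema3c (1.11 ± 0.23) differed the other way. DESeq2 called Dcc, Sema3e and Epha5 in this test. These differences rest on 1 adult library.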

How the results depend on the processing

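The age results depend on the processing more than the class and subtype results do. Of the 120 member and class pairs called, 93 kept their direction and call under every alternative in which they were tested. Endothelial-like pairs had no test under scanpy clustering, which named no endothelial-like cluster. The same held for 64 of 76 pairs by neuron subtype and 17 of 23 by fibroblast subset, but for 10 of 69 pairs with age. For age, leaving out an aged library gives no test and counts by direction. These 10 were Dcc, Epha5, Sema3e and Sema4b in SGC-like, Slit2, Plxna4 and Epha5 in NMSC-like, Ephb1 and Slit3 in MSC-like, and Nrp1 in myeloid-like nuclei.
Single libraries left out kept the class pairs called between 107 and 127 (120 with all), the subtype pairs between 73 and 76 (76) and the subset pairs between 21 and 26 (23). Leaving out an aged library leaves 1 against 1 and gives age values with no test; no member called with age turned direction. No paired analysis was made, because no label pairs the adult library with an aged one.

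Under DESeq2 the age calls were 4 of 12 in SGC-like, 3 of 12 in NMSC-like, 2 of 11 in MSC-like, 2 of 6 in neuron-like, 1 of 10 in myeloid-like nuclei, 2 of 14 different members over neuron subtypes (16 pairs) and 3 of 9 in the difference between neuron-like and SGC-like nuclei. With nuclei thinned to 1000 UMIs these counts were 5, 6, 7, 2, 6, 5 and 4, and 4 against 2 in fibroblast-like nuclei, with fewer members tested. With free RNA subtracted, 3 were called in MSC-like, 0 in neuron-like, 5 in fibroblast-like, 3 in endothelial-like and 6 in myeloid-like nuclei and 9 over subtypes; neuron-like Ntn1 turned from -0.86 to 6.31. A minimum of 2000 genes gave 4 in NMSC-like, 6 in MSC-like, 0 in fibroblast-like and 3 in endothelial-like nuclei. Clustering with the members gave 6 in fibroblast-like, 1 in endothelial-like and 5 in myeloid-like nuclei, and scanpy clustering 7 in fibroblast-like and 5 in myeloid-like nuclei, with NMSC-like Ephb1 against the other classes at -0.30 in place of 1.47 and no endothelial-like cluster. Without the filter on low counts 6 were called in fibroblast-like nuclei. The causes of these changes were not tested. With 1 adult library and few nuclei in small classes, low members could not be compared at this depth.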
